A study of Mus musculus with 42 samples.

Results

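Cells labelled Purkinje, from the first postnatal week, were compared in gene expression with cells labelled Stellate/Basket at postnatal day 14 (P14). The members are the 6 arrays whose titles name Purkinje cells at P3 or P7, 3 at each age, and the 4 whose titles name Stellate/Basket cells at P14, so 10 of the 42 array columns of the series and all 17478 genes tested. The first 6 are called the early arrays below. All 10 samples carried the label CB6-Tg(Gad1-EGFP)G42Zjh/J (G42), a mouse line in which a bacterial artificial chromosome drives green fluorescent protein (GFP) from the Gad67 gene (Gad1), and all were labelled male and taken from cerebellum. Purkinje P3 and P7 stood for postnatal days 3 and 7, and Stellate/Basket P14 for day 14, with no other genotype or agent separating them. Slices were kept in blockers of glutamate receptors and sodium channels (AP5, CNQX and TTX), digested lightly with a protease, and the freed cells were picked by hand by their GFP and the size of the soma. PolyA RNA went through a pair of amplification rounds before hybridisation to an Affymetrix mouse genome array. Each sample was labelled a biological replicate, but no label says whether animals were pooled. The p-values here reflect the spread within 12 groups of 40 arrays fitted together, most of them outside this comparison. That spread may be technical. Since no Stellate/Basket array is from P3 or P7, cell type and age cannot be told apart in any difference below.

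Purkinje cells are the GABAergic output neurons of the cerebellar cortex. In the first postnatal week they are still laying down their dendritic tree. Stellate and basket cells are the GABAergic interneurons of the molecular layer. They are born later than Purkinje cells, from dividing progenitors in the white matter, and inhibit Purkinje dendrites and somata. The soma of a mature Purkinje cell is far larger than that of either interneuron, which is what a sort by size relies on.

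Expression is given on a log2 scale for each probe set, as deposited, and the median over probe sets lay between 6.03 and 6.10 in the 10 arrays, with a 90th percentile of 9.04 to 9.25. The precision of each mean is set by 3, 3 and 4 arrays. Before any comparison, 3 checks of the labels gave values that go against them. Xist, the RNA of the inactive X chromosome, was at 6.38 and 7.22 in the first P3 and the first P7 array and at 12.34 to 12.74 in the other 4 early arrays, against 12.77 to 12.88 in all 4 Stellate/Basket arrays. The Y-linked gene Eif2s3y ran the other way, at 9.24 and 8.64 in the first P3 and the first P7 array and at 4.15 to 4.27 in the other 8 arrays. Although all 10 samples were labelled male, 8 therefore carried high Xist and low Eif2s3y. For the Y-linked genes Kdm5d and Uty, group differences and not single arrays are given, so whether they show this split was not tested. Their early differences from Stellate/Basket P14 were 0.06 and -0.0015, and -0.02 to 0.10 and -0.03 to 0.03 with single arrays left out. For Eif2s3y the difference was 1.57, and 0.73 without the first P3 array. Over the 14 Purkinje markers measured, the mean level was 8.49, 7.85 and 6.82 in the P3 arrays and 8.64, 8.94 and 9.27 in the P7 arrays, against 8.53, 8.48, 7.46 and 7.78 in Stellate/Basket P14. By this mean the P3 arrays overlapped Stellate/Basket P14, while all P7 arrays lay above it. The third P3 array was the lowest of all 10, with the calcium-binding protein Calb1 at 4.46 and Pcp2 at 6.46. Over the 10 markers of molecular layer interneurons the mean was 9.94, 9.99 and 9.94 at P3 and 9.32, 9.98 and 10.24 at P7, against 10.81, 10.57, 10.45 and 10.65 in Stellate/Basket P14. Arrays labelled Purkinje P14 averaged 12.44 for the Purkinje markers and 5.84 for the interneuron markers. By both lists the early arrays were thus nearer to Stellate/Basket P14 than to Purkinje P14. Across all genes, Pearson's r between an early array and a Stellate/Basket P14 array was 0.932 to 0.965, and between an early array and an array labelled Purkinje P14 it was 0.855 to 0.898. These correlations are over genes of shared arrays and are given as a description.

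**Figure D1:**
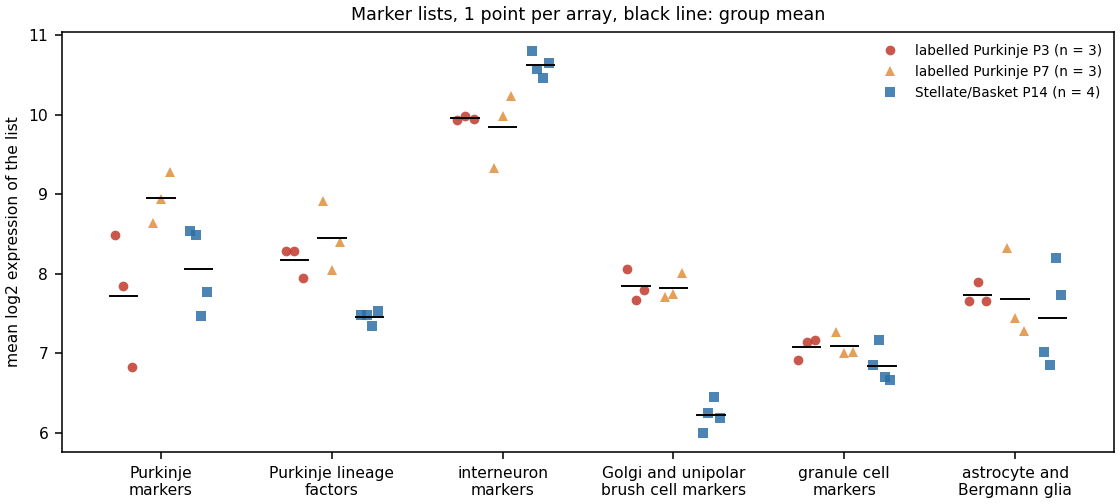
Mean log2 expression of 6 marker lists (vertical axis) in each array labelled Purkinje P3 (circles), labelled Purkinje P7 (triangles) and Stellate/Basket P14 (squares), with a black line at each group mean. The groups overlap for the granule cell and glial lists. For the Purkinje list the P3 arrays overlap Stellate/Basket P14 and the P7 arrays lie above it. The early arrays lie above Stellate/Basket P14 for the Purkinje lineage factors (7.95 to 8.91 against 7.34 to 7.53) and the Golgi and unipolar brush cell markers (7.67 to 8.06 against 5.99 to 6.45), and below it for the interneuron markers.

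In the comparison of the 6 early arrays with the 4 Stellate/Basket P14 arrays, 394 genes were higher and 270 lower in the early arrays. A gene is called when its Benjamini-Hochberg adjusted p from limma is under 0.05 over all 17478 genes and its log2 difference is at least 1 in size, which is a 2-fold change. The 394 are 2.25% and the 270 are 1.54% of the genes tested, together 3.8%, and the median difference over all genes was -0.01. At an unadjusted p under 0.05 there were 3095. Of the called genes, 115 higher and 62 lower reached 4-fold, 40 and 12 reached 8-fold, and 16 and 1 reached 16-fold. All 6 early arrays lay above all 4 Stellate/Basket arrays for 335 of the 394 genes, and below them for 241 of the 270. Over all genes tested, 5.73% lay wholly above and 4.55% wholly below, together 10.3%. Without the first P3 and the first P7 array, so that every array compared had high Xist, 332 genes were higher and 244 lower, 321 and 225 of them among those named above. Without the third P3 array, which had the lowest mean of the Purkinje markers, and the first P7 array, which correlated least with the other early arrays (0.962 to 0.974), 336 were higher and 243 lower, with 314 and 229 shared.

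The gene with the largest difference was Lrrtm1, a leucine-rich repeat adhesion protein of the postsynaptic membrane that binds neurexins. Its log2 level was 11.49, 11.67 and 11.57 in the arrays labelled Purkinje P3 and 11.63, 11.34 and 11.3 in those labelled P7, against 5.0, 4.77, 5.16 and 5.35 in the Stellate/Basket P14 arrays. The groups lay far apart and neither varied by as much as 1 unit. The log2 difference was 6.43 ± 0.29 (SE), or 86.2-fold (limma adjusted p = 6.28e-17). Lrrtm1 averaged 7.18 in arrays labelled Purkinje P14 and 7.28 to 7.75 at P21 to P56, so it stayed above all Stellate/Basket means of 5.05 to 5.85 at any age. Cdkn1c, the p57 inhibitor of cyclin-dependent kinases that accompanies exit from the cell cycle, was at 11.67, 11.87 and 12.04 in the arrays labelled Purkinje P3 and 11.42, 11.13 and 10.58 in those labelled P7, against 5.27, 5.26, 5.99 and 5.44 in the Stellate/Basket P14 arrays. It was the second largest difference, 5.96 ± 0.21 (limma adjusted p = 9.38e-20). Outside the early arrays its group means lay between 5.01 and 6.58 in both cell types. Ctxn2, which encodes the small membrane protein cortexin 2, was at 11.68, 11.06 and 11.53 at P3 and 11.35, 11.73 and 11.69 at P7, against 5.68, 5.67, 5.95 and 5.85 in Stellate/Basket P14 arrays. It too was uniformly high in the early arrays and uniformly low in the Stellate/Basket arrays, a difference of 5.72 ± 0.35 (limma adjusted p = 4.50e-14).

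**Figure D2:**
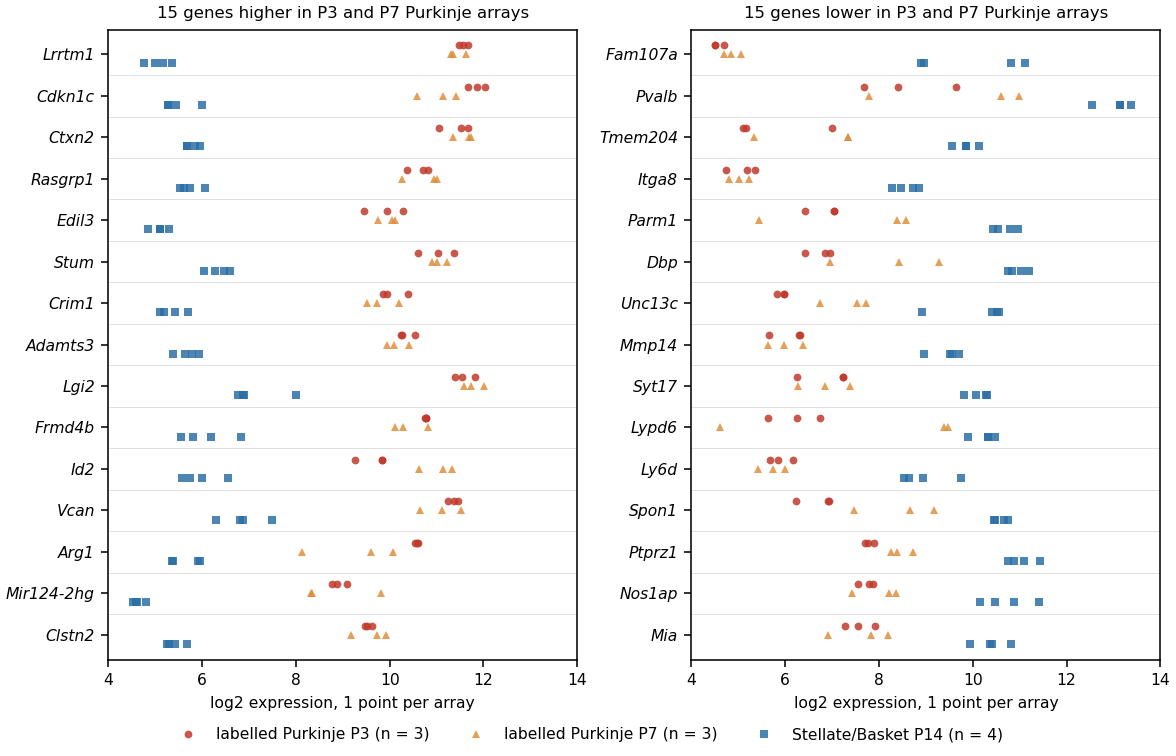
Log2 expression (horizontal axis) of the 15 genes leading each direction without overlap between the groups, 1 point per array, for arrays labelled Purkinje P3 (circles) and P7 (triangles) and Stellate/Basket P14 (squares). The genes on the left sit mostly above 9 in the early arrays and mostly below 7 in Stellate/Basket P14. On the right, Pvalb, Parm1, Dbp and Lypd6 spread most among the early arrays.

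Of the other 12 genes in the leading 15 higher in the early arrays, several encode proteins of the cell surface and the matrix. Vcan, the chondroitin sulfate proteoglycan versican, averaged 11.22 ± 0.32 in the early arrays and 6.87 ± 0.48 in Stellate/Basket P14 (SD, n = 6 and 4), a difference of 4.35 ± 0.24. Edil3, a secreted integrin-binding matrix protein, averaged 9.93 ± 0.29 in the early arrays and 5.08 ± 0.18 in Stellate/Basket P14, and Adamts3, a secreted metalloprotease that cleaves procollagen and reelin, averaged 10.25 ± 0.21 in the early arrays and 5.68 ± 0.23 in Stellate/Basket P14. The Edil3 difference was 0.9, under a 2-fold change, as the mean of its probe sets. Crim1, a transmembrane protein that binds bone morphogenetic proteins, averaged 9.94 ± 0.32 in the early arrays and 5.35 ± 0.27 in Stellate/Basket P14. The secreted Lgi2, of the leucine-rich glioma inactivated family, was at 11.83, 11.4 and 11.55 at P3 and 11.58, 12.02 and 11.74 at P7, against 6.89, 6.77, 8.0 and 6.87 in Stellate/Basket P14 arrays. Its lowest early array was thus more than 3 units above its highest Stellate/Basket array, which was the third. Clstn2, the synaptic adhesion protein calsyntenin 2, had a difference of 4.16 ± 0.34. The rest act inside the cell. Rasgrp1, an exchange factor that activates Ras in response to calcium and diacylglycerol, averaged 10.68 ± 0.31 in the early arrays and 5.74 ± 0.23 in Stellate/Basket P14. Id2, a helix-loop-helix protein that binds and inhibits basic helix-loop-helix factors, was at 9.83, 9.84 and 9.26 at P3 and 11.13, 10.63 and 11.33 at P7, against 6.55, 5.99, 5.56 and 5.75 in Stellate/Basket P14 arrays. Its P7 values exceeded its P3 values, and all 6 exceeded Stellate/Basket P14, with a difference of 4.37 ± 0.24. Arg1, the urea cycle enzyme arginase 1, was at 10.58, 10.55 and 10.6 at P3 and 10.07, 8.13 and 9.6 at P7, against 5.92, 5.35, 5.37 and 5.96 in Stellate/Basket P14 arrays. The second P7 array was its lowest early value, and the difference was 4.27 ± 0.22. Frmd4b, a FERM domain protein, and Stum, the homologue of a fly mechanosensory gene, differed by 4.49 ± 0.5 and 4.68 ± 0.14. The limma adjusted p of these 11 genes lay at or below 4.98e-08.

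The last of the leading 15 was Mir124-2hg, the host transcript of one of the genes for miR-124, a microRNA that is abundant in neurons. It was at 8.88, 8.77 and 9.09 at P3 and 9.82, 8.32 and 8.33 at P7, against 4.58, 4.62, 4.8 and 4.52 in Stellate/Basket P14 arrays. Every early array exceeded every Stellate/Basket array by more than 3 units, and the difference was 4.24 ± 0.24 (limma adjusted p = 1.48e-14). Mir124a-1hg, the host transcript of another miR-124 gene and a gene chosen after its values were seen, went the other way, with means of 7.44 in the early arrays and 9.29 in Stellate/Basket P14, a difference of -1.85 ± 0.3 (limma adjusted p = 3.77e-05). The array measures the host transcripts and not the mature microRNA.

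Among the 15 genes with the largest difference in the lower direction was Pvalb, the calcium-binding protein parvalbumin of fast-spiking GABAergic neurons. Pvalb was at 9.64, 8.4 and 7.67 in the arrays labelled Purkinje P3 and 7.8, 10.61 and 10.99 in those labelled P7, against 13.38, 13.14, 12.53 and 13.14 in the Stellate/Basket P14 arrays. Its early values spread over more than 3 units, with the second and the third P7 arrays highest, but all stayed below Stellate/Basket P14. The difference was -3.86 ± 0.36 (limma adjusted p = 1.25e-09). In arrays labelled Purkinje P14 Pvalb averaged 13.67. Fam107a, which encodes an actin-associated protein, had the largest difference in this direction and was at 4.5, 4.5 and 4.68 at P3 and 4.84, 4.7 and 5.05 at P7, against 8.97, 8.9, 11.12 and 10.81 in Stellate/Basket P14 arrays. The early arrays sat near the low end of the scale, and the Stellate/Basket arrays split into 2 near 9 and 2 near 11, so the SE was large (-5.24 ± 0.8, limma adjusted p = 1.36e-05). Averaged over 14 genes that mark astrocytes and Bergmann glia, the level in the same Stellate/Basket arrays was 7.01, 6.85, 8.20 and 7.73, so it was higher in the 2 arrays in which Fam107a was higher, and its part in this gene was not tested. Unc13c, a member of the Munc13 family that primes synaptic vesicles, was at 5.83, 5.98 and 5.96 at P3 and 6.75, 7.72 and 7.53 at P7, against 10.51, 10.41, 8.92 and 10.55 in Stellate/Basket P14 arrays. The third Stellate/Basket array was its lowest of that group but still above all early arrays, and the difference was -3.47 ± 0.35. Lypd6, a glycolipid-anchored protein that binds nicotinic receptors and one of the interneuron markers, was at 6.26, 6.74 and 5.63 at P3 and 4.6, 9.39 and 9.47 at P7, against 10.32, 10.48, 9.89 and 10.33 in Stellate/Basket P14 arrays. The second and the third P7 arrays came within 1 unit of Stellate/Basket P14 and the first P7 array was at the bottom of the scale, so that the mean difference of -3.24 ± 0.5 (limma adjusted p = 1.62e-05) covers a wide spread.

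Matrix and surface genes also stood among the leading lower genes. Itga8, the alpha 8 integrin subunit, averaged 5.05 ± 0.25 in the early arrays and 8.58 ± 0.26 in Stellate/Basket P14, and Mmp14, a membrane-bound matrix metalloprotease, averaged 6.04 ± 0.34 in the early arrays and 9.43 ± 0.32 in Stellate/Basket P14. Spon1, the secreted axon guidance protein F-spondin, averaged 7.56 ± 1.13 in the early arrays and 10.59 ± 0.15 in Stellate/Basket P14, and the receptor phosphatase Ptprz1, which binds pleiotrophin, averaged 8.12 ± 0.4 in the early arrays and 11.04 ± 0.3 in Stellate/Basket P14. Parm1, a mucin-like membrane protein, differed by -3.53 ± 0.34, and the claudin-like Tmem204 by -3.64 ± 0.54. Ly6d, a small glycolipid-anchored protein, was at 6.17, 5.67 and 5.85 at P3 and 5.43, 5.75 and 5.99 at P7, against 9.75, 8.94, 8.63 and 8.54 in Stellate/Basket P14 arrays. The group median was 8.79 in Stellate/Basket P14 and 5.54 to 6.12 in all other groups of the series, and Ly6d averaged 5.84 in Purkinje and 5.96 in Stellate/Basket arrays over P21 to P35. Syt17, of the synaptotagmin family, Nos1ap, the adaptor of neuronal nitric oxide synthase, and the secreted protein Mia differed by -3.24 ± 0.3, -2.87 ± 0.18 and -2.77 ± 0.18. The limma adjusted p of these 10 genes lay at or below 8.89e-06.

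The last of the 15 lower genes was Dbp, a transcription factor whose gene is driven by the circadian clock. It was at 6.95, 6.42 and 6.84 at P3 and 6.96, 8.43 and 9.28 at P7, against 10.84, 10.75, 11.2 and 11.02 in Stellate/Basket P14 arrays. All early arrays were lower, the second and the third P7 arrays least so, and the difference was -3.47 ± 0.25 (limma adjusted p = 4.21e-12). The list of thyroid hormone and clock output genes that holds it had a median difference of -0.57 beside -0.01 over all genes. Of its 16 genes tested, 3 were lower (1.54% over all genes) and 0 higher (2.25% over all genes). The others were Nr1d2, the clock repressor REV-ERB beta (-2.33 ± 0.29, limma adjusted p = 5.69e-07), and the thyroid-hormone-induced factor Klf9 (-1.02 ± 0.18, limma adjusted p = 1.78e-04). Klf9 fell short of a 2-fold change without any one of 4 arrays: -0.95 without the third P3 array, -0.84 without the first P7 array, and -0.99 and -0.97 without the second and the third Stellate/Basket arrays. Hour of collection is not given in the labels, and its part in these genes was not tested.

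The promoters of Lrrtm1, Pvalb and Dbp are printed because these genes lead the higher direction, the calcium-binding genes and the clock output genes. RefSeq promoters of build GRCm38.p6, each 300 bases around a transcription start, matched 22 of the 30 leading genes. CG dinucleotides are in capitals. Lrrtm1 lies on the plus strand at chr6:77242227-77242526 with 7 CG, Pvalb on the minus strand at chr15:78206351-78206650 (the more upstream of its 2 starts) with 5 CG, and Dbp on the plus strand at chr7:45704997-45705296 with 18 CG.
Lrrtm1: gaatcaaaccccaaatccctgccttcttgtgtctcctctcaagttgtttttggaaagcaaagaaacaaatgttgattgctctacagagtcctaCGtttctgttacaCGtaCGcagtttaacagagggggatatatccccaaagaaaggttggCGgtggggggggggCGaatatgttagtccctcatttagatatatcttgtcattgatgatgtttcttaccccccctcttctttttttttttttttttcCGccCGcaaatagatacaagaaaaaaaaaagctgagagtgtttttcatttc
Pvalb: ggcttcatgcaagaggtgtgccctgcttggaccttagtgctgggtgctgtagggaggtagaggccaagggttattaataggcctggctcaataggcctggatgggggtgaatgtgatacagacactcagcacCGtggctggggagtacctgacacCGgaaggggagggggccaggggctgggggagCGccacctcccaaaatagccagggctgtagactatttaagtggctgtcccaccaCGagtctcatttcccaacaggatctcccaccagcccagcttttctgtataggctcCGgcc
Dbp: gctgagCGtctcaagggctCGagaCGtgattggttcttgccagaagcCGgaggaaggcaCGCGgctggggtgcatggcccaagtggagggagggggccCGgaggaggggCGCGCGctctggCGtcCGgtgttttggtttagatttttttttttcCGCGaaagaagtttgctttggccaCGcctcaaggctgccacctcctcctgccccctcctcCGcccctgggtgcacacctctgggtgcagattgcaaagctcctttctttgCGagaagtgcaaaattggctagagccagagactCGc
None of these 3 windows holds CACGTG, the E-box bound by clock factors, or TATAAA, and neither word overlaps the other. Both words read on either strand were found in 7.15% and 13.6% of all 32851 promoters. Of 404 promoters of 303 genes higher in the early arrays, 6.68% held CACGTG and 8.66% TATAAA, and of 281 promoters of 201 lower genes 7.47% and 6.41% did. Among promoters of all genes tested these shares were 8.79% and 9.37%. The median CG count was 19 for higher and 17 for lower genes, beside 17 for all genes tested. A match or its lack describes these letters in this window only.

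Cell identity genes divided the arrays unevenly. Counts of list members here and below can be set beside 2.25% higher and 1.54% lower over all genes tested. The lists and their members were chosen with earlier results of these data known. Of 14 Purkinje markers, 3 were higher and 2 lower in the early arrays, and the list's median was 0.13. Calb1 was at 11.68, 11.04 and 4.46 in the arrays labelled Purkinje P3 and 12.02, 12.05 and 12.6 in those labelled P7, against 8.79, 8.19, 5.55 and 5.94 in the Stellate/Basket P14 arrays. Its level was high in 5 early arrays and at the floor in the third P3 array, below the Stellate/Basket arrays, so the groups overlap. The difference was 3.52 ± 0.79 (limma adjusted p = 0.00264), and it missed the threshold when only these 10 arrays were fitted (limma adjusted p = 0.143). Slc1a6, the Purkinje glutamate transporter EAAT4, was at 8.51, 8.15 and 7.99 at P3 and 8.61, 10.62 and 10.8 at P7, against 7.36, 7.0, 6.35 and 6.69 in Stellate/Basket P14 arrays, a difference of 2.27 ± 0.35 (limma adjusted p = 1.65e-05) with no overlap. Car8, the carbonic anhydrase related protein, was higher by 1.85 ± 0.6 (limma adjusted p = 0.048), but missed the threshold without any one of 7 arrays. These were the first and second P3 (1.32 and 1.51), each P7 (1.85, 1.86 and 1.83) and the third and the fourth Stellate/Basket arrays (1.43 and 1.49). Gng13, a G protein gamma subunit, and Pcp4, a calmodulin-binding peptide, are also Purkinje markers but were lower, by -2.68 ± 0.33 and -1.5 ± 0.32 (limma adjusted p = 2.49e-07 and 0.00128). Gng13 was at 5.36, 5.31 and 5.03 at P3 and 5.38, 6.23 and 6.61 at P7, against 9.28, 9.34, 6.75 and 7.98 in Stellate/Basket P14 arrays, and its groups did not overlap. Pcp2, a G protein regulator found in Purkinje cells, had a difference of -0.18 ± 0.4 (limma adjusted p = 0.933).

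Of 11 transcription factors of the Purkinje lineage 4 were higher and 1 lower, with a median of 0.78. That median was 0.48 to 0.94 with single arrays left out. Ebf3, an early B-cell factor of postmitotic neurons, was at 9.43, 9.27 and 9.0 at P3 and 9.72, 7.43 and 8.39 at P7, against 5.32, 5.41, 5.12 and 5.22 in Stellate/Basket P14 arrays, without overlap, a difference of 3.6 ± 0.34 (limma adjusted p = 1.10e-09). Bcl11a, a zinc finger factor, and Ebf1 were higher by 2.4 ± 0.35 and 2.26 ± 0.36, but by 0.55 and 0.84 as means of their probe sets. Foxp2, a forkhead factor of Purkinje cells, was higher by 1.19 ± 0.35 (limma adjusted p = 0.0281). Rora, the nuclear receptor that Purkinje cells need for their dendritic growth, ran the other way at 9.67, 9.47 and 9.58 at P3 and 8.53, 10.86 and 10.95 at P7, against 12.18, 11.89, 11.83 and 12.11 in Stellate/Basket P14 arrays. All early values were below all Stellate/Basket values, and the difference was -2.16 ± 0.34 (limma adjusted p = 2.87e-05).

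Of 10 interneuron markers, 4 were lower and 0 higher, with a median of -0.98. Beside Lypd6 they were the sorting receptor Sorcs3 (-1.74 ± 0.23), the receptor phosphatase Ptprk (-1.47 ± 0.21) and the receptor tyrosine kinase Kit (-1.01 ± 0.23), with limma adjusted p at or below 0.00293. Kit averaged 9.48 ± 0.36 in the early arrays and 10.49 ± 0.32 in Stellate/Basket P14, so that it was well expressed on both sides, and arrays labelled Purkinje P14 averaged 5.55. The Kit difference fell just under 2-fold without the second P3 (-0.94), the first P7 (-0.87) or the first Stellate/Basket array (-0.86). Of 7 factors of GABAergic progenitors, 1 was lower, the zinc finger protein Prdm8, which averaged 10.66 ± 0.19 in the early arrays and 11.94 ± 0.23 in Stellate/Basket P14, a difference of -1.28 ± 0.14 (limma adjusted p = 1.68e-08). In these bulk samples, fewer cells of a type and less RNA per cell cannot be told apart.

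Markers of other cell types were tested in the same way. Of 7 genes that mark Golgi and unipolar brush cells, other neurons of the granular layer, 4 were higher and 0 lower, with a median of 1.52. Beside Lgi2 these were the neuropeptide gene Sst, at 10.36, 10.01 and 10.31 at P3 and 8.99, 7.79 and 10.54 at P7, against 6.41, 6.67, 7.64 and 7.18 in Stellate/Basket P14 arrays, the glycine transporter GlyT2 gene Slc6a5, at 9.52, 8.4 and 8.44 at P3 and 8.56, 9.46 and 8.98 at P7, against 6.53, 6.51, 6.67 and 6.57 in Stellate/Basket P14 arrays, and the glutamate receptor gene Grm2, which averaged 8.5 ± 0.47 in the early arrays and 6.98 ± 0.15 in Stellate/Basket P14. None of the 3 overlapped between the groups, and the differences were 2.69 ± 0.27, 2.32 ± 0.18 and 1.52 ± 0.14, with limma adjusted p at or below 5.93e-09. The list mean was 7.67 to 8.06 in the early arrays and 5.99 to 6.45 in Stellate/Basket P14, while the unipolar brush cell genes Eomes, Lmx1a and Tbr1 averaged 6.12, 5.43 and 4.52 in the early arrays and 5.97, 5.45 and 4.47 in Stellate/Basket P14. The part of such cells in the other differences was not tested. Of 14 astrocyte and Bergmann glia markers 3 were higher and 0 lower, with a median of -0.03, and the list mean was 7.27 to 8.33 in the early arrays and 6.85 to 8.20 in Stellate/Basket P14. Fabp7, a fatty acid binding protein of radial and Bergmann glia, was higher by 1.98 ± 0.31 (limma adjusted p = 2.65e-05). The water channel gene Aqp4 was higher by 1.47 ± 0.43 (limma adjusted p = 0.0268), but not past the threshold without the second P3 (1.19), first P7 (1.12), or first or second Stellate/Basket array (1.22 and 1.21). Aldh1l1, a folate enzyme of astrocytes, was higher by 1.23 ± 0.29, but by only 0.88 without the first P7 array, in which the list was highest. Of 15 granule cell genes 1 was higher, Reln, which encodes the secreted guidance protein reelin (2.32 ± 0.3, limma adjusted p = 1.06e-06). Cbln1 of this list differed by 0.86, short of the 2-fold minimum. It passed without the first P3 (1.09) or the second Stellate/Basket array (1.13), and as the mean of its probe sets (1.39). Limma called 0 of the 10 oligodendrocyte, 9 microglia, 10 vascular and 3 red blood cell genes, with 2, 0, 0 and 0 at an unadjusted p under 0.05, and the list means of the last 3 were 5.0 to 6.61 in every array.

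Genes of neuronal maturation came next. Of 24 genes of immature neurons and neurite growth, 3 were higher and 0 lower, and the median was 0.46. Dpysl3, the growth cone protein CRMP4, averaged 12.3 ± 0.11 in the early arrays and 10.81 ± 0.2 in Stellate/Basket P14, and Cd24a, a surface glycoprotein of young neurons, averaged 10.98 ± 0.33 in the early arrays and 9.29 ± 0.25 in Stellate/Basket P14. The neuronal tubulin gene Tubb3 averaged 10.03 ± 0.4 in the early arrays and 8.73 ± 0.37 in Stellate/Basket P14. Their differences were 1.5 ± 0.29, 1.7 ± 0.39 and 1.3 ± 0.26, with limma adjusted p at or below 0.00297, and none overlapped. Of 25 cell cycle genes 5 were higher and 1 lower, with a median of 0.46. Ccnd2, the cyclin D2 gene, was at 10.36, 10.86 and 10.37 at P3 and 10.32, 10.15 and 9.85 at P7, against 8.12, 6.57, 7.78 and 8.66 in Stellate/Basket P14 arrays, a difference of 2.54 ± 0.33 (limma adjusted p = 1.14e-06) without overlap. Top2a, the topoisomerase of dividing cells, was at 8.18, 8.42 and 8.09 at P3 and 9.94, 6.3 and 5.81 at P7, against 5.69, 5.74, 6.23 and 5.66 in Stellate/Basket P14 arrays. It was highest in the first P7 array, and the other 2 P7 arrays lay within reach of Stellate/Basket P14, so the groups overlapped (1.96 ± 0.39, limma adjusted p = 6.47e-04). The proliferation marker Mki67 was higher by 1.32 ± 0.32 and the mitotic activator Cdc20 by 1.47 ± 0.43. The Cdc20 call was lost without any one of 5 arrays, the lowest value being 1.02 without the first P7 array, the others 1.42 (first P3) and 1.39, 1.33 and 1.49 (the first, the second and the fourth Stellate/Basket). The fifth higher gene of this list was the inhibitor Cdkn1c, and the lower one was the cyclin E1 gene Ccne1 (-1.03 ± 0.18).

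Nuclear factor I and Id genes were called in 6 of 8 cases, 3 in each direction, beside 3.8% called over all genes tested. Nfia, a nuclear factor I that promotes glial and late neuronal differentiation, was at 9.04, 8.88 and 8.89 at P3 and 9.04, 8.86 and 8.37 at P7, against 10.72, 10.76, 10.62 and 10.67 in Stellate/Basket P14 arrays, and all early values were lower, by -1.85 ± 0.17 (limma adjusted p = 6.75e-10). Nfib and Nfix, of the same family, were also lower, by -1.28 ± 0.27 and -1.65 ± 0.15 (limma adjusted p = 0.00131 and 4.84e-10). Nfib and Nfix are named although the naming rule did not pick them. The Id genes ran the opposite way, with Id3 higher by 1.66 ± 0.2 and Id4 by 2.1 ± 0.43 beside Id2. Id4 was at 8.7, 8.75 and 6.48 at P3 and 9.19, 9.62 and 9.97 at P7, against 5.31, 5.71, 9.04 and 6.68 in Stellate/Basket P14 arrays. The third Stellate/Basket array exceeded 3 early arrays, so its groups overlap. Of 4 Zic genes, zinc finger factors of cerebellar interneurons and granule cells, 1 was higher, Zic5 (1.2 ± 0.17, limma adjusted p = 3.31e-06), and Zic2 also passed without the first Stellate/Basket array (1.05). Zic1, chosen after its values were seen, averaged 12.11 ± 0.3 in the early arrays and 12.15 ± 0.27 in Stellate/Basket P14, against 4.72 in arrays labelled Purkinje P14.

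Of 5 genes of GABA synthesis, packaging and uptake limma called 0, beside 3.8% of all genes tested. With so few members that count tells little. None had an unadjusted p under 0.05. The GABA-synthesising enzyme genes Gad1 and Gad2 differed by -0.22 ± 0.12 and 0.14 ± 0.16, and the vesicular transporter gene Slc32a1 by -0.0044 ± 0.29. Gad1 was at 12.09, 12.07 and 12.31 at P3 and 12.4, 12.13 and 11.98 at P7, against 12.53, 12.31, 12.27 and 12.41 in Stellate/Basket P14 arrays, so Gad1 was high in all 10 arrays. The cells were picked by GFP driven from this gene, so a high Gad1 level is what the sort selects for. Of 9 GABA-A receptor subunits, 2 were higher and 2 lower. The alpha 2 subunit gene Gabra2 averaged 6.76 ± 0.92 in the early arrays and 8.89 ± 0.11 in Stellate/Basket P14, and the beta 2 gene Gabrb2 averaged 9.06 ± 0.48 in the early arrays and 11.14 ± 0.18 in Stellate/Basket P14. Gabra5 and Gabrg1, for the alpha 5 and gamma 1 subunits, were higher, averaging 6.2 ± 0.69 in the early arrays and 4.69 ± 0.27 in Stellate/Basket P14 and 6.84 ± 0.54 in the early arrays and 5.23 ± 0.1 in Stellate/Basket P14. None of the 4 overlapped, and their limma adjusted p was at or below 0.00116. Slc12a5, the potassium-chloride cotransporter KCC2 that lowers neuronal chloride, was lower at 11.41, 11.07 and 10.95 at P3 and 10.53, 11.5 and 11.41 at P7, against 12.39, 12.37, 12.23 and 12.19 in Stellate/Basket P14 arrays. The difference was -1.15 ± 0.22 (limma adjusted p = 3.38e-04) and -0.996, just under a 2-fold change, without the first P7 array. It was the one called gene of 5 chloride transporters. Slc12a2, the importer NKCC1, differed by 0.69 ± 0.21 in the opposite direction, short of the 2-fold minimum. Of 6 glycine receptor and transporter genes 1 was higher, Glra2, the receptor subunit of immature neurons (1.45 ± 0.24, limma adjusted p = 4.96e-05).

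Glutamate signalling genes were called in both directions. Of 14 ionotropic receptor genes 1 was higher and 2 lower. Grin3a, the NMDA receptor subunit GluN3A, was at 7.85, 7.55 and 8.02 at P3 and 7.9, 8.19 and 7.84 at P7, against 10.31, 9.08, 10.32 and 10.22 in Stellate/Basket P14 arrays, all early arrays lower, with a difference of -2.09 ± 0.25 (limma adjusted p = 2.01e-07). Gria3, an AMPA receptor subunit, was lower by -1.12 ± 0.28 (-0.95, limma adjusted p = 0.0557, without the 2 early arrays of low Xist), and the kainate receptor subunit Grik1 was higher by 1.51 ± 0.42 (limma adjusted p = 0.0187), a call lost without the first Stellate/Basket array (1.37). Of 14 genes of metabotropic receptor mGluR1 and calcium store signalling 1 was higher and 3 lower. Plcb1, a phospholipase C that cleaves phosphoinositide, was at 8.06, 8.08 and 8.71 at P3 and 8.86, 8.92 and 9.18 at P7, against 11.24, 10.71, 10.69 and 10.89 in Stellate/Basket P14 arrays, a difference of -2.25 ± 0.16 (limma adjusted p = 3.83e-12). The protein kinase C gene Prkca and the diacylglycerol kinase gene Dgkz were lower by -1.89 ± 0.2 and -1.06 ± 0.13. Without the first P3 array the Dgkz difference was -0.99. The scaffold gene Homer2 was higher by 1.51 ± 0.21 (limma adjusted p = 3.72e-06). Grm3, a group II metabotropic receptor, was among the most abundant of the higher genes, at 12.1, 12.13 and 12.38 at P3 and 12.1, 11.87 and 11.84 at P7, against 9.19, 8.78, 9.1 and 8.86 in Stellate/Basket P14 arrays, a difference of 3.09 ± 0.31 (limma adjusted p = 6.50e-09).

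Of 21 potassium channel genes 4 were lower and 1 higher. Kcna1 and Kcna2, the Kv1.1 and Kv1.2 subunits that sit on axons, were lower. Kcna1 was at 8.32, 8.04 and 8.11 at P3 and 7.69, 9.49 and 9.6 at P7, against 11.17, 11.43, 11.03 and 10.53 in Stellate/Basket P14 arrays, and Kcna2 averaged 9.79 ± 0.53 in the early arrays and 11.92 ± 0.13 in Stellate/Basket P14. Kcnc4, of the fast Kv3 family, and Kcnd3, the A-type subunit Kv4.3, were lower by -1.81 ± 0.22 and -1.8 ± 0.32, while Kcnd2, the related subunit Kv4.2, was higher and averaged 9.16 ± 0.66 in the early arrays and 6.74 ± 0.5 in Stellate/Basket P14. All 5 genes had groups that did not overlap, with limma adjusted p at or below 1.53e-04. Of 19 sodium, HCN and calcium channel genes 2 were higher and 3 lower. Cacna1e, the R-type calcium channel, averaged 7.98 ± 0.21 in the early arrays and 10.63 ± 0.16 in Stellate/Basket P14, a difference of -2.66 ± 0.21 (limma adjusted p = 3.24e-11). The L-type channel genes Cacna1c and Cacna1d were lower by -1.12 ± 0.23 and -1.13 ± 0.15. The T-type channel gene Cacna1h and the sodium channel beta 3 subunit gene Scn3b, which is prominent in immature neurons, were higher by 1.49 ± 0.24 and 1.28 ± 0.23. Of 11 calcium binding proteins and pumps, Slc8a1, a sodium-calcium exchanger, and Hpcal1, a neuronal calcium sensor, were higher, and Pvalb was lower. Slc8a1 averaged 11.47 ± 0.18 in the early arrays and 9.33 ± 0.31 in Stellate/Basket P14, and Hpcal1 averaged 10.65 ± 0.25 in the early arrays and 8.73 ± 0.17 in Stellate/Basket P14.

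Synaptotagmins moved in opposite directions among 22 presynaptic vesicle genes, of which 1 was higher and 2 lower. Syt1, a calcium sensor of fast release, was at 11.36, 11.07 and 10.96 at P3 and 11.04, 10.9 and 11.04 at P7, against 8.41, 8.98, 8.59 and 9.08 in Stellate/Basket P14 arrays. Syt2, the sensor of many fast inhibitory synapses, was at 8.22, 8.16 and 8.22 at P3 and 7.95, 8.91 and 8.95 at P7, against 10.82, 10.51, 10.87 and 10.88 in Stellate/Basket P14 arrays. Neither overlapped, and the differences were 2.3 ± 0.26 and -2.37 ± 0.17 (limma adjusted p = 9.57e-08 and 2.94e-12). Of 17 genes of synapse adhesion and scaffold, 3 were higher and 1 lower: Lrrtm1, its relative Lrrtm2 (1.18 ± 0.21) and Slitrk1 (1.02 ± 0.29), against the scaffold gene Dlg2 (-1.46 ± 0.24). Slitrk1 fell under a 2-fold change without the second P3 (0.98), first P7 (0.97) or the third Stellate/Basket array (0.89).

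Cadherins and contactins, adhesion molecules that sort neurons and their contacts, had the most higher members of any list by count. Of 30 tested, 7 were higher and 2 lower, with a median of 0.27, beside 2.25% higher and 1.54% lower over all genes. Some smaller lists had a larger share of higher members, such as Golgi and unipolar brush cell markers (4 of 7) and Purkinje lineage factors (4 of 11). Pcdh8, a protocadherin, was at 9.47, 9.76 and 9.75 at P3 and 9.46, 7.7 and 9.22 at P7, against 5.63, 5.14, 5.36 and 5.64 in Stellate/Basket P14 arrays, a difference of 3.79 ± 0.41. Cdh13, the lipid-anchored T-cadherin, was at 11.44, 10.22 and 10.76 at P3 and 10.6, 10.42 and 10.72 at P7, against 7.42, 7.34, 7.39 and 7.34 in Stellate/Basket P14 arrays, and Cdh4, the R-cadherin, averaged 9.74 ± 0.28 in the early arrays and 6.74 ± 0.37 in Stellate/Basket P14. The contactin gene Cntn4 was lower, averaging 6.29 ± 0.58 in the early arrays and 8.74 ± 0.23 in Stellate/Basket P14. None of the 4 overlapped between the groups, with limma adjusted p at or below 1.58e-04. The remaining higher members, Pcdh7, Pcdh9, Pcdh19 and Cntn5, differed by 1.01 to 2.39, and the remaining lower one was Cdh22 (-2.03 ± 0.29). Axon guidance genes were split, 5 of 36 higher and 4 lower. Sema6d, a transmembrane semaphorin, was at 11.39, 11.26 and 11.51 at P3 and 11.74, 11.34 and 11.2 at P7, against 7.8, 7.47, 7.6 and 7.26 in Stellate/Basket P14 arrays, a difference of 3.87 ± 0.22 (limma adjusted p = 1.94e-14) with no overlap. Efna5, an ephrin ligand, was higher too, averaging 10.61 ± 0.24 in the early arrays and 8.72 ± 0.3 in Stellate/Basket P14. The secreted semaphorin gene Sema3e was lower by -2.23 ± 0.35, and Plxnd1, which encodes its receptor, by -1.45 ± 0.15. The netrin genes Ntn4 and Ntn1 were lower by -2.08 ± 0.37 and -1.35 ± 0.25. Sema3a, Epha3 and Unc5d were the other higher members (1.08 to 1.67).

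**Figure D3:**
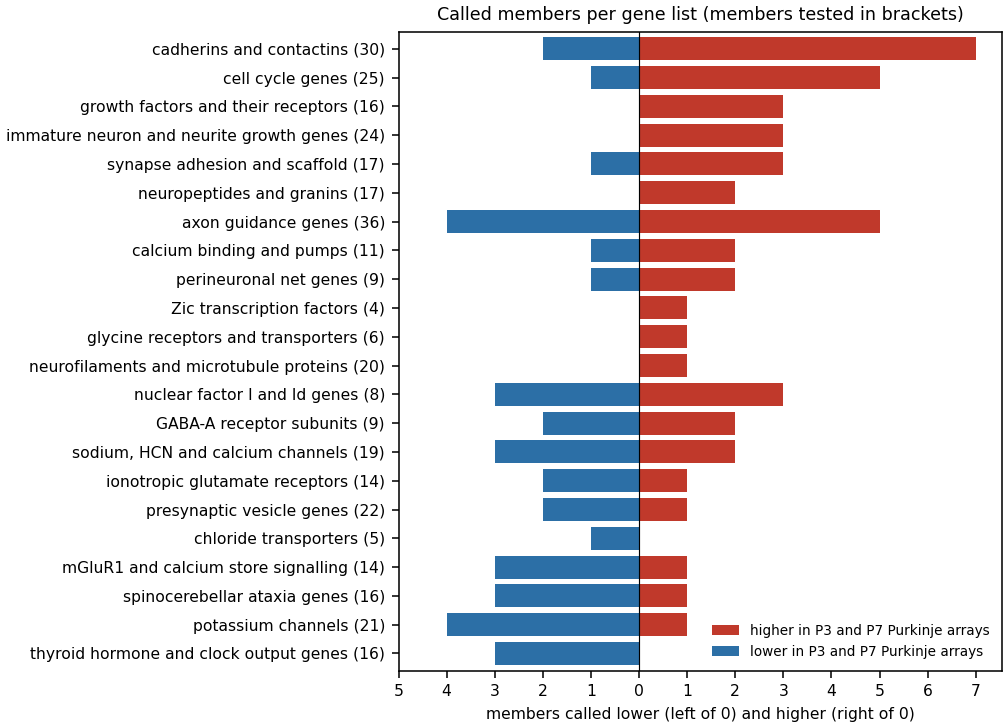
Number of members of each gene list called higher (right of 0) and lower (left of 0) in the early arrays than in Stellate/Basket P14, with the members tested in brackets. Lists without a called member and all lists of cell type markers are left out. Cadherins and contactins have the most higher members (7 of 30). Potassium channels and axon guidance genes have the most lower members (4 of 21 and 4 of 36). Over all genes tested, 2.25% were higher and 1.54% lower.

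Growth factor genes were higher in 3 of 16 cases. Nrg1, the ErbB receptor ligand neuregulin 1, averaged 7.82 ± 0.73 in the early arrays and 4.84 ± 0.05 in Stellate/Basket P14, a difference of 2.99 ± 0.22 (limma adjusted p = 5.86e-12). Igf1, insulin-like growth factor 1, was at 9.09, 9.22 and 5.89 at P3 and 9.32, 7.9 and 8.17 at P7, against 5.48, 5.67, 5.71 and 5.67 in Stellate/Basket P14 arrays. The third P3 array was lowest but still above Stellate/Basket P14. Kitl, the ligand of Kit, was higher by 1.4 ± 0.39 (limma adjusted p = 0.0173), a call lost without the first P3 (1.196), first P7 (1.03), or first or second Stellate/Basket array (1.32 and 1.11). Of 17 neuropeptide and granin genes 2 were higher, the granin Scg2 (2.07 ± 0.29) and the enkephalin precursor Penk (1.55 ± 0.35), with limma adjusted p at or below 0.00275. Of 9 genes of perineuronal nets, the matrix around mature neurons, Vcan and the hyaluronan synthase gene Has3 were higher and Tnr, the glycoprotein tenascin R, was lower. Tnr was at 7.32, 7.55 and 6.52 at P3 and 7.09, 6.61 and 6.81 at P7, against 9.82, 8.88, 7.82 and 9.21 in Stellate/Basket P14 arrays, a difference of -1.95 ± 0.24 (limma adjusted p = 3.38e-07). Has3 was higher by 1.02 ± 0.15 and by 0.89 to 0.99 without any one of 4 arrays (the second P3, the second P7, and the second and the third Stellate/Basket arrays). Of 16 genes whose mutations cause spinocerebellar ataxia 1 was higher and 3 lower. Atxn1 averaged 7.45 ± 0.92 in the early arrays and 8.87 ± 0.42 in Stellate/Basket P14, Fgf14, a sodium channel partner, differed by -2.17 ± 0.55 and Ppp2r2b, a phosphatase subunit, by 1.26 ± 0.2. The third lower gene was Kcnd3, given above. Fgf14 lost its call without the first Stellate/Basket array (-1.78). One of 20 neurofilament and microtubule genes was higher, Map1b, a microtubule protein of growing axons (1.07 ± 0.33, limma adjusted p = 0.0388). That call was lost without any one of 7 arrays: 1.005, 0.97, 1.03 and 1.04 without the second and the third P3 or P7 arrays, and 1.08, 1.02 and 0.92 without the second, the third and the fourth Stellate/Basket arrays. Limma called 0 of 12 Sonic hedgehog pathway, 15 immediate early, 16 cholesterol synthesis, 16 ribosomal protein and 26 oxidative phosphorylation genes, with 2, 1, 3, 3 and 2 at an unadjusted p under 0.05. Of these, the immediate early gene Ier2 passed without the first P3 array (-1.21, limma adjusted p = 0.0433).

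Some calls among the named genes depended on the fit or on the probe set. When only the 10 arrays were fitted, 13 of 125 were lost. Besides Calb1 (limma adjusted p = 0.143) these were Car8 (0.331), Aqp4 (0.158), Aldh1l1 (0.133), Top2a (0.113), Cdc20 (0.107), Penk (0.0594), Kitl (0.188), Id4 (0.113), Atxn1 (0.0726), Pcp4 (0.106), Aldoc (0.173) and Ctnna1 (0.085). Taking the mean over the probe sets of a gene ended 34 calls, whose differences were then all under 1 in size. They were Edil3, Bcl11a, Ebf1, Ptprk, Kit, Aqp4, Aldh1l1, Zic5, Top2a, Cdc20, Gabra2 (-0.55), Gabrg1, Slc12a5, Grik1, Plcb1 (-0.76), Prkca, Cacna1h, Scn3b, Cacna1d, Dlg2, Lrrtm2, Sema3e, Efna5, Kitl, Klf9, Map1b, Fgf14, Kcnd3, Atxn1, Ppp2r2b, Nrk, Aldoc, Tmem255a and Ctnna1. Without the 2 early arrays of low Xist, 11 calls were lost, those of Car8, Kit, Aqp4, Aldh1l1, Cdc20, Gria3, Slitrk1, Kitl, Klf9, Fgf14 and Aldoc.

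The ages P3 and P7 gave like counts when each was set against the same 4 Stellate/Basket arrays. At P3 412 genes were higher (2.36%) and 293 lower (1.68%), together 4.03%, and at P7 358 were higher (2.05%) and 247 lower (1.41%), together 3.46%. Between the ages themselves, limma called 7 genes higher at P7 than at P3 (0.0401%) and 2 lower (0.0114%), together 0.0515%, with 610 at an unadjusted p under 0.05. Nrk, a kinase of the germinal centre kinase family, was at 7.92, 6.13 and 4.59 at P3 and 8.76, 9.12 and 10.07 at P7, against 5.45, 6.13, 4.71 and 4.6 in Stellate/Basket P14 arrays, and differed between the ages by 3.1 ± 0.58 (limma adjusted p = 0.0257). The third P3 array was at the Stellate/Basket level and the P7 arrays well above it. Pcp4 was at 11.65, 9.55 and 8.51 at P3 and 11.82, 11.74 and 12.5 at P7, against 12.48, 12.56, 11.99 and 12.81 in Stellate/Basket P14 arrays, with a difference between the ages of 2.12 ± 0.4 (limma adjusted p = 0.0257). Aldoc, the zebrin II enzyme that marks bands of Purkinje cells, was at 8.52, 8.54 and 7.83 at P3 and 8.69, 10.44 and 11.19 at P7, against 10.14, 10.87, 9.99 and 10.05 in Stellate/Basket P14 arrays, and was higher at P7 by 1.81 ± 0.34 (limma adjusted p = 0.0257). The second and the third P7 arrays reached the Stellate/Basket level, and the first P7 array stayed with P3. Aldoc was lower in the early arrays by -1.06 ± 0.27, a call lost without the third P3 (-0.94), the first P7 (-0.71) or the second Stellate/Basket array (-0.86). The other named genes were Tmem255a, Exph5 and Spon1, higher at P7 by 1.78 ± 0.35, 1.49 ± 0.29 and 1.74 ± 0.35, and Prr3, lower by -1.28 ± 0.22. Chst11, chosen after its values were seen, was higher by 1.13 (limma adjusted p = 0.0328), and the other lower gene has a clone name and is not named. The counts between the ages rested on single arrays: without the first P7 array 24 genes were higher and 25 lower, and without the second P3 array 1 was called in all.

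Whether the early differences were also found later was read from the arrays at P21, P28 and P35, whose values are in neither group mean of the early comparison, although they share its estimate of the spread, its choice of probe sets and its filter. There, 1080 genes were higher (6.18%) and 1113 lower (6.37%) in Purkinje than in Stellate/Basket arrays. Of the 394 genes higher early, 97 were higher later (24.6%, and 8.98% of the later higher genes), 62 were lower (15.7%, and 5.57% of the later lower genes) and 235 were not called (59.6%). Their median difference was 1.52 early and 0.11 later. Of the 270 genes lower early, 143 were lower later (53% of them, and 12.8% of the later lower genes), 17 were higher (6.3%, and 1.57% of the later higher genes) and 110 were not called (40.7%), with medians of -1.41 early and -1.12 later. Among genes not called early 5.75% were higher and 5.4% lower later. The test of the difference itself, early minus later, was past the threshold for 279 of the 394 (70.8%) and 130 of the 270 (48.1%), beside 13.1% of all genes tested (7.26% higher and 5.82% lower). The genes were chosen on the early values that this test uses again, so these shares are a description and nothing is read from them.

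**Figure D4:**
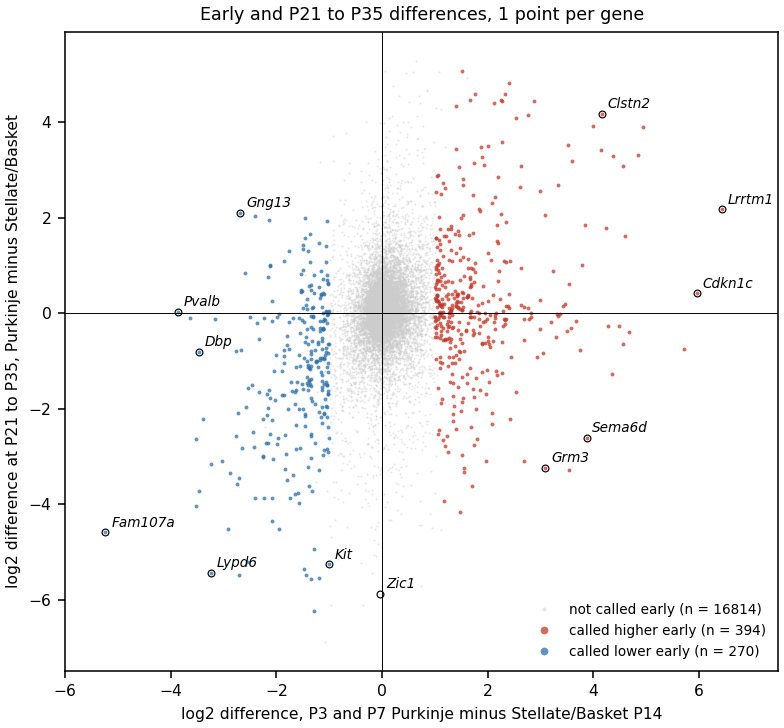
Log2 difference of the early arrays minus Stellate/Basket P14 (horizontal axis) against the log2 difference of Purkinje minus Stellate/Basket at P21 to P35 (vertical axis), 1 point per gene, with genes called higher or lower early in colour. The 394 higher genes scatter around 0 on the vertical axis (median 0.11), and the 270 lower ones lie mostly below it (median -1.12).

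Of the leading 15 higher genes 8 were higher later too: Lrrtm1, Rasgrp1, Edil3, Crim1, Adamts3, Id2, Mir124-2hg and Clstn2. Clstn2 averaged 10.82 in Purkinje and 6.64 in Stellate/Basket arrays at P21 to P35, and its early and later differences did not test as different (-0.02 ± 0.41, limma adjusted p = 0.982). The 6 not called later were Cdkn1c, Ctxn2, Stum, Lgi2, Frmd4b and Arg1, each with a called difference between early and later. Vcan turned round, at 5.56 in Purkinje and 6.84 in Stellate/Basket arrays later. Of the leading 15 lower genes 11 were lower later. The other 4 were Pvalb, Tmem204, Dbp and Ly6d. Pvalb averaged 13.41 in Purkinje and 13.38 in Stellate/Basket arrays at P21 to P35, and Tmem204 averaged 10.31 in Purkinje and 10.41 in Stellate/Basket arrays, so that both were then high on either side. Fam107a averaged 8.1 in Purkinje and 12.69 in Stellate/Basket arrays, with a later difference of -4.59 (limma adjusted p = 3.14e-08). 

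Genes whose direction turned round included several that are high in the later Stellate/Basket arrays. Sema6d averaged 6.92 in Purkinje and 9.52 in Stellate/Basket arrays at P21 to P35, Grm3 averaged 6.27 in Purkinje and 9.51 in Stellate/Basket arrays, and Alcam, an immunoglobulin adhesion molecule, averaged 6.58 in Purkinje and 9.67 in Stellate/Basket arrays. Alcam was at 11.89, 12.05 and 11.8 at P3 and 11.62, 10.68 and 11.29 at P7, against 9.59, 8.61, 8.92 and 8.38 in Stellate/Basket P14 arrays in the early comparison. Early minus later differences were 6.48 ± 0.27, 6.33 ± 0.38 and 5.77 ± 0.41, with limma adjusted p at or below 1.17e-12. In the other direction, Gng13, Pcp4 and the tubulin gene Tuba8 were lower early and higher later. Gng13 averaged 12.85 in Purkinje and 10.74 in Stellate/Basket arrays at P21 to P35, and Tuba8 averaged 10.94 in Purkinje and 8.91 in Stellate/Basket arrays. Shisa6, an AMPA receptor auxiliary protein, was at 8.19, 8.57 and 7.6 at P3 and 8.44, 9.35 and 10.01 at P7, against 10.94, 10.48, 11.04 and 10.87 in Stellate/Basket P14 arrays early and averaged 11.76 in Purkinje and 9.82 in Stellate/Basket arrays later. Prkcd, a protein kinase C, Kcng4, a silent potassium channel subunit, Eepd1 and Nwd2 did likewise, with early differences of -1.85 ± 0.44, -1.5 ± 0.35, -1.75 ± 0.17 and -2.12 ± 0.5.

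The early and later values of 3 marker lists are given side by side. Of the 14 Purkinje markers 13 were higher and 0 lower at P21 to P35, with a median of 2.95, beside 3 and 2 with a median of 0.13 early. Of the 10 interneuron markers 9 were lower later, with a median of -4.60, beside 4 and -0.98 early. Kit, for example, averaged 5.34 in Purkinje and 10.6 in Stellate/Basket arrays later, and its difference changed by 4.25 ± 0.28 (limma adjusted p = 2.62e-13). Zic1 averaged 6.34 in Purkinje and 12.22 in Stellate/Basket arrays, and its difference changed by 5.84 ± 0.46 (limma adjusted p = 1.64e-11). Of the 14 astrocyte and Bergmann glia markers 10 were lower and 0 higher later, with a median of -2.97, beside 0 and 3 with a median of -0.03 early. The mean of that list was 7.21 to 7.48 in Purkinje and 9.56 to 10.3 in Stellate/Basket groups at P21 to P35, and 7.45 in Stellate/Basket P14. The part of glial RNA in the later differences, and so in which early differences were kept or turned round, was not tested.

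**Figure D5:**
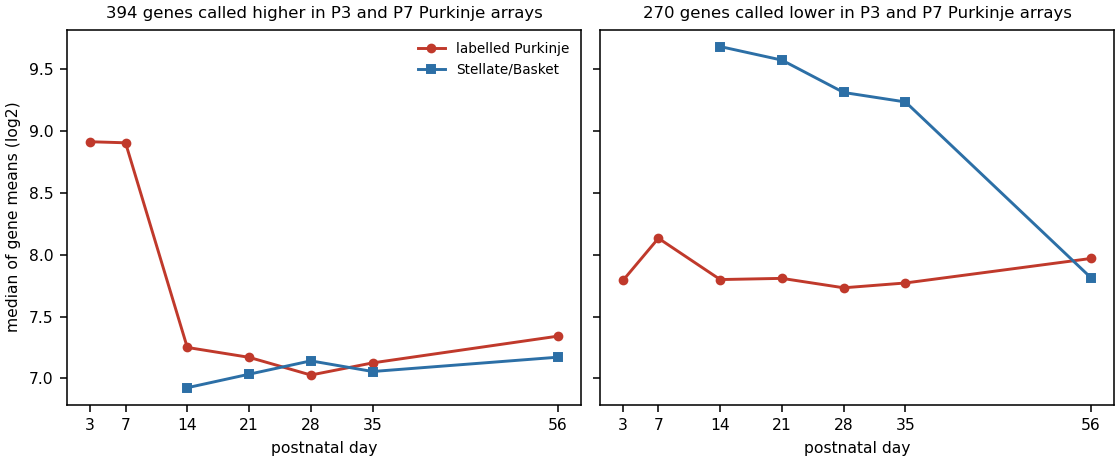
Median, over genes, of the group means (log2, vertical axis) by postnatal day (horizontal axis) for the 394 genes higher (left) and the 270 lower (right) in the early arrays, in arrays labelled Purkinje (circles) and Stellate/Basket (squares). The higher genes are at 8.91 at P3 and P7 and at 7.03 to 7.34 in later Purkinje arrays, near the Stellate/Basket medians of 6.93 to 7.17. The lower genes are at 9.24 to 9.68 in Stellate/Basket arrays from P14 to P35 and at 7.73 to 8.13 in all Purkinje groups.

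The levels of the called genes over all ages show the same split. The median of the 394 higher genes was 8.91 in both P3 and P7 arrays, 7.25 in arrays labelled Purkinje P14 and 6.93 in Stellate/Basket P14, and the P3 and P7 values and Stellate/Basket P14 values were used in choosing these genes. The median of the 270 lower genes was 7.79 at P3, 8.13 at P7 and 7.80 in Purkinje P14, against 9.68 in Stellate/Basket P14. It was 7.82 in the 2 arrays labelled Stellate/Basket P56 and 7.97 in Purkinje P56. Those 2 arrays averaged 6.34 for the interneuron markers, against 9.82 to 10.62 in Stellate/Basket P14 to P35, 11.19 for the Purkinje markers and 10.89 for the astrocyte and Bergmann glia markers, so their markers go against the label.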

How the data were processed

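The authors deposited log2 values, 1 per probe set, for 42 arrays in a series table. R 2.9.1 and GCRMA are named in the submitters' processing notes; what each did is not given in the sources used here. Of 45101 probe sets, 34958 had 1 gene symbol in the platform annotation, 932 several and 9211 none. Each of 18194 genes took its probe set with the highest mean level, and 17478 genes above a log2 value of 5 in at least 3 arrays were tested. Among 96 named called genes with several probe sets, all probe sets passed 1 the same way in 15, and in 73 at least one probe set was under 0.5 or of opposite sign. Means of 12 groups (cell type by age) were fitted with limma 3.58.1 (R 4.3.3) over 40 arrays; 2 columns that equalled the mean of other columns were left out. Early Purkinje is the mean of the P3 and P7 group means. A log2 difference of at least 1 with a Benjamini-Hochberg adjusted p under 0.05 counts as called.

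Genes were named by rule: the 15 largest called differences in each direction without overlap, up to 4 called members of each list (or the 2 largest where fewer than 2 were called), the 6 largest between P7 and P3, the 8 largest in each direction kept or turned round at P21 to P35, and a few check genes. Where text gives other members, they are the rest of a list's count. The members and lists were chosen with earlier results of these data known. The fit was tested on simulated data with independent normal values and known changes, so outlying arrays and mixed cells were not covered. Alternatives were other filters, probe set rules, normalizations, weights, thresholds, covariates and left-out arrays. Python 3.11.15, numpy 2.4.6, pandas 2.3.3 and matplotlib 3.10.9 were used for tables and figures.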

Additional observations from a re-analysis of the deposited data

Results flagged for a closer look

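Among 159 named genes, 12 had 1 of the 4 Stellate/Basket P14 arrays set apart from the other 3 by Dixon's test, where chance alone gives about 1 in 20. The third array did so in 5 genes, being above the others for Lgi2 (8.0), Cd24a (9.66), Top2a (6.23) and Ctnna1 (6.64), and below them for Unc13c (8.92). The second array did so in 4, below the others for Grin3a (9.08), Syt2 (10.51) and Ppp2r2b (5.14) and above them for Aldoc (10.87). The first array was below the others for Igf1 (5.48) and above them for Fgf14 (9.43), and the fourth was above them for Gabra5 (5.1). Early groups of 3 arrays are too small for this test.

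Between P7 and P3, limma's test of the difference passed for Aldoc (1.81), Exph5 (1.49), Nrk (3.1), Pcp4 (2.12), Spon1 (1.74), Tmem255a (1.78) and Prr3 (-1.28) among the named genes. The early and the P21 to P35 differences themselves differed for 1269 genes in the higher and 1018 in the lower direction. Outside the genes tested, 8977 probe sets without a single gene symbol gave 71 higher and 196 lower in the early arrays (2.97% called).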

How the results depend on the processing

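None of the 125 named called genes changed sign under the alternatives run, while 10 of the 34 named genes that were not called did (C1qa, Cldn5, Eif2s3y, Gad2, Hbb-b2, Kdm5d, Pcp2, Prr3, Slc32a1 and Uty), and the counts of the early comparison stayed within 1.5 times under all but those named here. The mean over a gene's probe sets gave 167 genes lower in the early arrays (274 higher), 158 lower at P7, 696 lower at P21 to P35 and 3 higher at P7 than P3, and 91 of 125 named called genes remained called. With no minimum difference the counts were 891 higher and 620 lower early, 691 and 477 at P3, 573 and 420 at P7, 5384 and 3897 at P21 to P35, 2300 and 2508 for early minus later, and 5 lower at P7 than P3. Genes higher and lower at P7 than P3 numbered 12 and 6 with a filter at log2 7, 59 and 33 with array weights, 0 and 1 at an adjusted p under 0.01, 13 and 7 with all 42 columns, 16 and 7 with the 90th percentile as covariate, 32 and 20 without the arrays of low Xist, and 21 and 22 without the third P3 and first P7 array. The last 2 settings were chosen after seeing the data. Leaving out single arrays gave 347 to 421 higher and 245 to 293 lower early, 354 to 419 and 259 to 284 at P3, 285 to 372 and 193 to 256 at P7, 0 to 24 and 1 to 25 between the ages, 1052 to 1144 and 1085 to 1154 at P21 to P35, and 1188 to 1321 and 955 to 1055 for early minus later. Of 125 named called genes, 110 kept their call with each array left out.

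Same-numbered arrays did not deviate together (r of -0.17 to 0.08). Deviations from means of so few arrays cannot decide whether the numbers pair the samples. With the replicate block, Car8 (1.8) and Map1b (1.07) lost their calls. The number of arrays limits the precision of every value here.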

Other observations

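Other genes that turned round by P21 to P35 were Abtb2, an ankyrin repeat and BTB domain protein, and Ctnna1, the catenin that links cadherins to actin. Abtb2 was at 10.8, 10.93 and 10.62 at P3 and 11.12, 10.28 and 10.4 at P7, against 8.0, 7.17, 5.84 and 7.62 in Stellate/Basket P14 arrays, and averaged 5.46 in Purkinje and 8.75 in Stellate/Basket arrays at P21 to P35. Ctnna1 was at 7.87, 7.85 and 8.36 at P3 and 10.48, 6.0 and 6.82 at P7, against 4.98, 5.12, 6.64 and 5.13 in Stellate/Basket P14 arrays, so that its values in the first P7 and the third Stellate/Basket array stood high in their groups and the groups overlapped. Of 570 genes on chromosome X, 19 were higher (3.33%) and 7 lower (1.23%) in the early arrays, beside 2.25% and 1.54% of all genes tested.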
